A study of Mus musculus with 12 samples.

Results

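Signalling from Toll-like receptors (TLRs) is limited by proteins that the signal itself calls up, and 8 genes for such brakes were followed: *Tnfaip3*, *Tnip1*, *Tnip3*, *Zc3h12a*, *Irak3*, *Zfp36*, *Dusp1* and *Dusp2*. They were chosen by name, through the accessions of their probes, from the 32301 genes or transcripts on the array, and 11 probes belonged to them. All 8 gave a signal well above background on 12 of 12 arrays, so that a filter for dim probes left out none of them.

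The brakes act at successive steps of the pathway. Lipopolysaccharide (LPS) binds TLR4, whose adaptor MyD88 gathers the IRAK kinases into the Myddosome, and the signal then runs through ubiquitin chains to NF-κB and to the MAP kinases. *Irak3* encodes a kinase-like protein that restrains the Myddosome. *Tnfaip3* encodes A20, an enzyme that edits ubiquitin chains, and *Tnip1* and *Tnip3* encode ubiquitin-binding partners of A20. *Dusp1* and *Dusp2* encode phosphatases that switch off MAP kinases. *Zfp36* encodes tristetraprolin, which binds AU-rich elements in cytokine mRNAs and promotes their decay. *Zc3h12a* encodes Regnase-1, an endonuclease that cuts cytokine mRNAs.

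The cells were bone marrow-derived macrophages (BMDMs), grown for 7 days with M-CSF from C57BL/6 mice of 8 weeks of age. Wild-type (WT) mice were compared with KpCKO mice, in which both alleles of *Keap1*, the adaptor that marks the transcription factor Nrf2 for degradation, are floxed and are deleted by a Cre recombinase expressed from the lysozyme M (*Lyz2*) locus in myeloid cells. BMDMs were left without stimulus (Con), or were exposed for 6 h to LPS with IFNγ (M1) or to IL-4 (M2). Each of the 6 groups held 2 arrays, 1 from a culture of male mice (culture 1) and 1 from a culture of female mice (culture 2), and the 3 arrays of a genotype within a culture came from the same mouse. The values are 1-colour Agilent intensities, given as log2 levels relative to the 75th percentile of their array. A level therefore compares groups within a gene, and levels of different genes are not comparable. Differences were tested with limma over all genes, with culture as a block, and a call means a Benjamini-Hochberg adjusted p under 0.05.

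The 75th percentile lay between 548 and 1166 intensity units, and 59.3% to 71.4% of the probes on an array were well above background. The lowest percentile belonged to the WT M1 array of culture 2. The 4 arrays of each stimulus shared 1 slide, so that stimulus and slide cannot be told apart, whereas every slide carried both genotypes. *Keap1* was lower in KpCKO on each slide and in both cultures, with mean log2 differences of −1.46, −1.71 and −1.81 in Con, M1 and M2, and the Nrf2 target *Nqo1* was higher by 3.23, 3.50 and 3.52 (adjusted p between 6.77e-05 and 0.0335). Of 7 macrophage markers, 6 were measured, and all 6 were well above background on 12 of 12 arrays. Markers of other cells were measured too. Of 8 neutrophil markers 5 to 7 were well above background on an array, of 4 B cell markers 2 to 3, of 3 T cell markers 0 to 2 and of 4 dendritic cell markers 2 to 4, while *Elane*, *Ms4a1* and *Cd3d* were not well above background on any array. Their summed level, relative to the 75th percentile, was 3.15 to 16.6 for the neutrophil list and under 1 for each of the other 3 lists, against 375 to 804 for the macrophage markers. Cells of a type and RNA per cell cannot be told apart in these RNA samples.

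The promoters of 5 of the genes are printed, those of the A20 group because they hold the consensus of NF-κB, the factor at the end of the TLR pathway, and those of the MAP kinase phosphatases because these parted in the M1 response and differ in their cyclic AMP response elements. The sequences are those of RefSeq on GRCm38.p6, and run from 250 bases before to 50 bases after an annotated start. *Tnfaip3* and *Irak3* have 2 annotated promoters each in that table, and for *Tnfaip3* only the first is printed. Capitals mark the NF-κB consensus, the cyclic AMP response element TGACGTCA and its shorter form TGACG, read on both strands.
Tnfaip3, chr10:19015361-19015660, minus strand: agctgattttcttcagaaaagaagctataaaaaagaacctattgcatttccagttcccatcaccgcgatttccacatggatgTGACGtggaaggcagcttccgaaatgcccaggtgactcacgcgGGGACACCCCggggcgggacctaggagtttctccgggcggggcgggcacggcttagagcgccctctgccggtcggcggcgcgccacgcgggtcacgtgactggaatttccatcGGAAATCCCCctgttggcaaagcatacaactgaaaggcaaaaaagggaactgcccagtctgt
Tnip1, chr11:54962891-54963190, minus strand: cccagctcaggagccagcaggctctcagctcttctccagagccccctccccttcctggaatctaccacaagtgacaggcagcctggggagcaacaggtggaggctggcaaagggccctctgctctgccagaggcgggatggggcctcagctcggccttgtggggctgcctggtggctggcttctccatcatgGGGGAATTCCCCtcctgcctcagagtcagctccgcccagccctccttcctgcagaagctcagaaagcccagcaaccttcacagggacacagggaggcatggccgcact
Tnip3, chr6:65590148-65590447, plus strand: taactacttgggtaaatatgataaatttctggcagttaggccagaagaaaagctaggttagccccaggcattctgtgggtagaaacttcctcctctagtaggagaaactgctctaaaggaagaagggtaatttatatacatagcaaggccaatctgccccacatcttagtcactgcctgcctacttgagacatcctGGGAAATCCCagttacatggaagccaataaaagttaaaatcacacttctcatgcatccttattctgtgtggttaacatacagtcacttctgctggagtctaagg
Dusp1, chr17:26508423-26508722, minus strand: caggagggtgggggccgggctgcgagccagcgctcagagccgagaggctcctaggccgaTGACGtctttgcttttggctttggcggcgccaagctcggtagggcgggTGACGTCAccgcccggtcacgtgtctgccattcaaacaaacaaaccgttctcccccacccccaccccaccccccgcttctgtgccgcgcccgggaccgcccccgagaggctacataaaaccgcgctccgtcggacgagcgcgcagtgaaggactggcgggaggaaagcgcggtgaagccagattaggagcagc
Dusp2, chr2:127335909-127336208, plus strand: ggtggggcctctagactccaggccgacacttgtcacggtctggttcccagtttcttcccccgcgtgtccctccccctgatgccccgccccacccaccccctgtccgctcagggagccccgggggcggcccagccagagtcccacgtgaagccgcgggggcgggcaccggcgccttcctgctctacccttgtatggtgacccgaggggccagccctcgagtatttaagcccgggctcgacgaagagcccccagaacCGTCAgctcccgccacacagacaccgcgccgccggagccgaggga

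The NF-κB consensus stood in 4.51% of 32851 mouse promoters of this length. It was found at bases 126 and 239 of the printed *Tnfaip3* promoter, counted from the left, and not in the other one, as 3 overlapping matches at bases 193 to 195 of the *Tnip1* promoter, and at base 197 of the *Tnip3* promoter. *Dusp1* carried the full TGACGTCA at base 108, a motif of 1.79% of promoters, which contains 2 matches of TGACG, and a further TGACG at base 60. TGACG alone, in 20.8% of promoters, was also present for *Tnfaip3* (the printed promoter), *Zc3h12a*, *Irak3* (the later of its 2 promoters in the table) and *Dusp2*. The *Zfp36* promoter held a CArG box, the site of serum response factor, as 1.63% of promoters do. Other motifs were searched too. The antioxidant response element, the binding motif of Nrf2, is in 27.8% of promoters and was matched in *Dusp1* only. The GAS motif (8.3% of promoters) was matched in *Tnip1* and *Zfp36*. The printed *Tnfaip3* promoter matched the AP-1 (7.81%) and STAT6 (6.95%) motifs, and TATAAA (13.6%) was matched there and in *Tnip3*. No NF-κB consensus was matched in the windows of *Zc3h12a*, *Irak3*, *Zfp36*, *Dusp1* or *Dusp2*, which says nothing of sites elsewhere. These are matches of letters, and no binding was measured here.

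**Figure D1:**
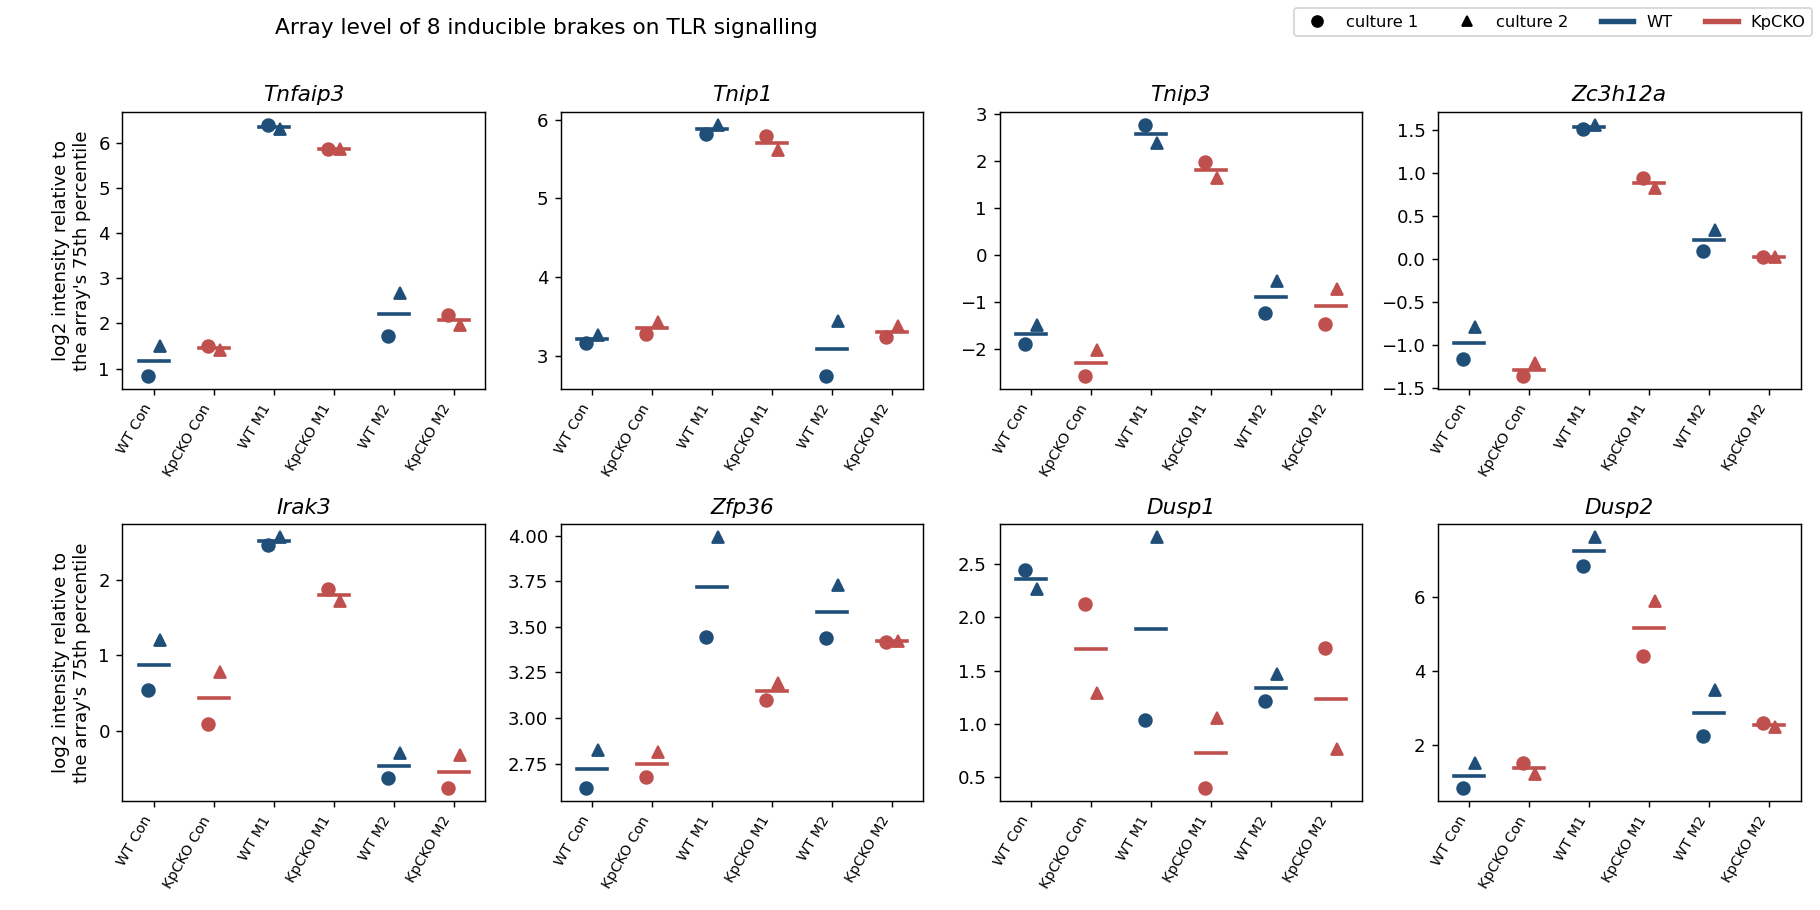
Log2 level relative to the 75th percentile of the array (vertical axes, 1 scale per gene) of the 8 genes in Con, M1 and M2 BMDMs. Each point is 1 array, bars are means of n = 2 and WT and KpCKO are shown side by side; in M1 the levels of Tnfaip3, Tnip1, Tnip3, Zc3h12a, Irak3 and Dusp2 lie above Con and M2 in both genotypes, whereas Dusp1 does not.

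M1 stimulation raised the RNA of 7 of the 8 genes in WT BMDMs and of the same 7 in KpCKO BMDMs. Of all genes tested, 34.5% were called higher in WT and 24.8% in KpCKO. Over the 8 genes the median log2 difference was 2.58 in WT and 2.26 in KpCKO, against 0.13 and 0.029 over all genes. With quantile normalization the median of all genes in WT was −0.079 and 45.2% rather than 54.6% of all calls were higher, and the 7 genes were still called in WT. *Dusp1* was the exception in both genotypes. The sizes of the rises depend on the scaling, since all 7 were smaller in WT with quantile normalization. There the log2 rise in WT was 4.60 for *Tnfaip3*, 1.98 for *Tnip1* and 5.46 for *Dusp2*. The KpCKO values with quantile normalization were 4.04, 1.87 and 3.47.

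*Tnfaip3* rose most of the A20 group. It was at 0.83 and 1.49 in WT Con and at 6.39 and 6.30 in WT M1, in cultures 1 and 2. In KpCKO it was at 1.50 and 1.41 in Con and at 5.87 and 5.85 in M1. Every M1 array lay far above every Con array, with a rise of 36.5-fold in WT (log2 difference 5.19, adjusted p = 1.88e-05) and 21.2-fold in KpCKO (log2 difference 4.41, adjusted p = 6.01e-05). By the size of its rise in WT it held place 193 of 22356 genes tested.

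*Tnip1*, whose product binds A20 and ubiquitin chains, was at 3.17 and 3.27 in WT Con and at 5.82 and 5.94 in WT M1. The KpCKO levels were 3.28 and 3.43 in Con and 5.79 and 5.62 in M1. In both genotypes the M1 arrays lay above the Con arrays, and the rise was 6.32-fold in WT (adjusted p = 3.96e-05) and 5.09-fold in KpCKO (adjusted p = 1.12e-04). *Tnip3*, a relative with an inducible transcript, started from −1.88 and −1.49 in WT Con and reached 2.76 and 2.37 in WT M1. In KpCKO it went from −2.57 and −2.02 to 1.96 and 1.64. Both KpCKO M1 arrays lay below both WT M1 arrays, although the rise from Con was alike in size, 19.0-fold in WT (adjusted p = 4.56e-05) and 17.1-fold in KpCKO (adjusted p = 9.40e-05).

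The RNA decay factors rose by unequal amounts. *Zc3h12a* was at −1.16 and −0.79 in WT Con and at 1.51 and 1.56 in WT M1. In KpCKO its levels were −1.36 and −1.21 in Con and 0.94 and 0.83 in M1. This rise was 5.70-fold in WT (log2 difference 2.51, adjusted p = 1.33e-05) and 4.50-fold in KpCKO (log2 difference 2.17, adjusted p = 4.05e-05), and the M1 arrays of the genotypes did not overlap. *Zfp36* had smaller differences. It moved from 2.61 and 2.82 in WT Con to 3.45 and 3.99 in WT M1, a rise of 2.0-fold (adjusted p = 7.67e-04). In KpCKO it moved from 2.68 and 2.81 to 3.10 and 3.19, a rise of 1.32-fold that was just past the threshold (adjusted p = 0.0484). Under the alternatives the *Zfp36* call in KpCKO was lost with 11 of 15. With quantile normalization its log2 difference in KpCKO was 0.15 instead of 0.40 (adjusted p = 0.348). The WT rise of *Zfp36* also shrank with quantile normalization, to a log2 difference of 0.56, and was still called (adjusted p = 0.00680). The size of the *Zfp36* rise thus depends on the scaling in both genotypes.

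*Irak3*, the brake on the Myddosome, was at 0.53 and 1.20 in WT Con and at 2.47 and 2.58 in WT M1. Its KpCKO levels were 0.081 and 0.77 in Con and 1.88 and 1.73 in M1. The Con groups overlapped and the M1 groups did not, with a rise of 3.14-fold in WT (adjusted p = 5.22e-04) and 2.60-fold in KpCKO (adjusted p = 0.00175). The 3 probes of *Irak3* gave log2 differences of 1.65, 1.53 and 1.41 in WT.

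The MAP kinase phosphatases parted. *Dusp2* had the largest rise of the 8 genes in WT and the third in KpCKO, after *Tnfaip3* and *Tnip3*. It went from 0.83 and 1.51 in WT Con to 6.85 and 7.63 in WT M1, and in KpCKO from 1.52 and 1.23 to 4.42 and 5.89. The KpCKO M1 arrays were both below the WT M1 arrays, and the rise was 67.0-fold in WT (log2 difference 6.07 ± 0.43, SE, adjusted p = 4.02e-05) and 13.8-fold in KpCKO (log2 difference 3.78 ± 0.43, adjusted p = 4.67e-04). *Dusp1* was at 2.45 and 2.26 in WT Con and at 1.03 and 2.75 in WT M1, so that culture 1 fell by 1.41 and culture 2 rose by 0.49. In KpCKO it was at 2.13 and 1.29 in Con and at 0.40 and 1.06 in M1, lower in M1 in both cultures. Neither difference was called (WT −0.46, 95% interval −1.90 to 0.98, adjusted p = 0.530, and KpCKO −0.98, −2.42 to 0.46, adjusted p = 0.221).

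**Figure D2:**
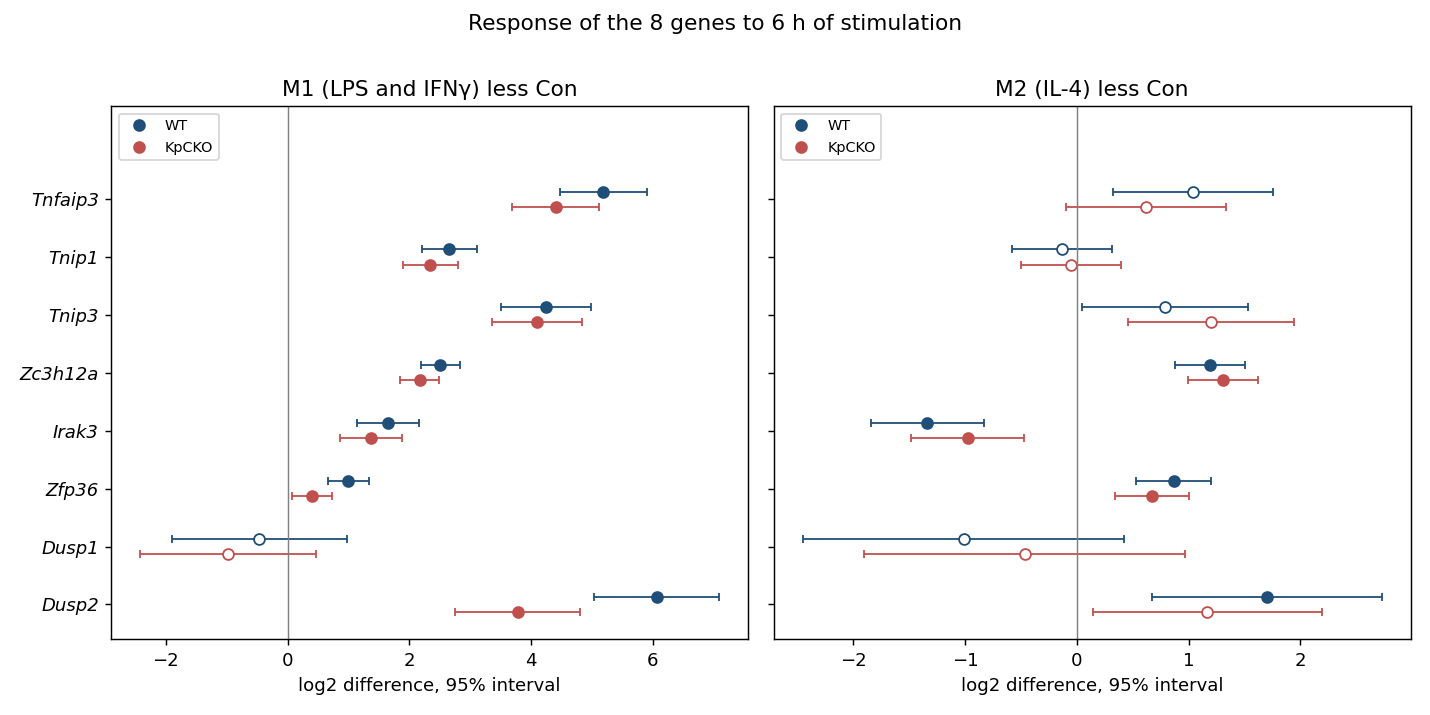
Log2 difference of each of the 8 genes between stimulated and Con BMDMs (horizontal axes, M1 left and M2 right, on different scales), with the 95% interval of limma as bars, in WT and KpCKO, n = 2 arrays per group. Filled points passed limma's test and open points did not; in M1 only Dusp1 is open in both genotypes, and in M2 Irak3 lies below 0 while Zc3h12a and Zfp36 lie above it.

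IL-4 moved fewer of the genes, and not all upward. In WT M2, *Dusp2*, *Zc3h12a* and *Zfp36* were called higher than in Con and *Irak3* lower, where 8.62% of all genes were called higher and 8.2% lower. In KpCKO M2, *Zc3h12a* and *Zfp36* were called higher and *Irak3* lower, against 5.66% and 4.53% of all genes. Over the 8 genes the median difference was 0.83 in WT and 0.65 in KpCKO, against −0.0087 and 0.0082 over all genes.

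*Zc3h12a* was at 0.093 and 0.34 in WT M2 and at 0.024 and 0.019 in KpCKO M2, between Con and M1 in both genotypes. This corresponds to 2.28-fold above Con in WT (adjusted p = 0.00278) and 2.48-fold in KpCKO (adjusted p = 0.00313). *Zfp36* reached 3.44 and 3.73 in WT M2, which overlapped its WT M1 levels, and 3.42 and 3.42 in KpCKO M2, above both KpCKO M1 arrays. Its rise from Con was 1.82-fold in WT (adjusted p = 0.00964) and 1.60-fold in KpCKO (adjusted p = 0.0304). *Irak3* went the other way, to −0.64 and −0.30 in WT M2 and −0.77 and −0.33 in KpCKO M2, below every Con array of either genotype. The log2 difference was −1.34 in WT (adjusted p = 0.00919) and −0.98 in KpCKO (adjusted p = 0.0350), so that M1 and M2 lay on opposite sides of Con.

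*Dusp2* was at 2.25 and 3.50 in WT M2 and at 2.59 and 2.49 in KpCKO M2, above Con on every array. The difference was called in WT (log2 difference 1.70, adjusted p = 0.0400) and not in KpCKO (1.17, adjusted p = 0.141). *Tnfaip3* showed the same order without a call, at 1.73 and 2.67 in WT M2 and 2.19 and 1.95 in KpCKO M2 (log2 differences 1.04 and 0.62, adjusted p = 0.0586 and 0.243). For *Tnip3* the M2 levels were −1.23 and −0.56 in WT and −1.46 and −0.72 in KpCKO (0.79 and 1.20, adjusted p = 0.135 and 0.0573). *Tnip1* was at 2.74 and 3.44 in WT M2 and 3.23 and 3.37 in KpCKO M2, with intervals of −0.58 to 0.32 and −0.50 to 0.40 around its differences of −0.13 and −0.053. *Dusp1* was at 1.22 and 1.47 in WT M2 and at 1.71 and 0.76 in KpCKO M2, lower than Con in both cultures of both genotypes and not called (−1.01 and −0.47, adjusted p = 0.297 and 0.676). With the array of any 1 culture left out, between 1 and 2 genes were called in WT M2 and 1 in KpCKO M2, so that most of the IL-4 calls rest on both cultures.

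The order of the 6 groups sorted the genes into kinds. For *Tnfaip3*, *Tnip3*, *Zc3h12a* and *Dusp2*, WT M1 stood first and KpCKO M1 second, followed by WT M2, KpCKO M2 and the Con groups, with no overlap between WT M1 and KpCKO M1 or between KpCKO M1 and WT M2. Of all genes, 30.4% had KpCKO M1 below WT M1 without overlap, and the share for KpCKO M1 above WT M2 is not given here. Between WT M1 and KpCKO M1, *Zc3h12a* and *Dusp2* passed limma's test and *Tnfaip3* and *Tnip3* did not. *Tnip1* had WT M1 and KpCKO M1 first and the other 4 groups overlapped their neighbours. In the order of *Irak3* the Con groups stood between the M1 and the M2 groups. *Zfp36* had WT M1 and WT M2 together at the top (3.72 ± 0.388 and 3.58 ± 0.203, SD, n = 2), then KpCKO M2 (3.42 ± 0.00597) and only then KpCKO M1 (3.15 ± 0.0656). For *Dusp1* every group overlapped its neighbour, from WT Con (2.35 ± 0.131) down to KpCKO M1 (0.73 ± 0.468).

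Between the genotypes, the 8 genes were compared on each slide. In M1 all 8 levels were lower in KpCKO than in WT in both cultures, apart from *Tnip1* under quantile normalization, where its mean difference was 0.054. *Dusp2*, *Zc3h12a* and *Zfp36* passed the test, 3 of 8, where 8.59% of all genes were called lower and 7.41% higher. For 7 of the 8 genes the WT M1 and KpCKO M1 arrays did not overlap, as for 30.4% of all genes in this direction. The median difference of the 8 genes was −0.69, against −0.087 over all genes. With quantile normalization 60% of all calls were higher in KpCKO, against 46.3% with the scaling used here.

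*Dusp2* had the largest genotype difference, −2.43 in culture 1 and −1.73 in culture 2. Its mean level was 7.24 ± 0.549 (SD, n = 2) in WT M1 and 5.16 ± 1.04 in KpCKO M1, or 4.23-fold lower (95% interval of the log2 difference −3.11 to −1.06, adjusted p = 0.0251). Only 0.532% of all genes tested had a lower difference. *Zc3h12a* was lower by 0.57 and 0.73 on the log2 scale, 1.57-fold on average (adjusted p = 0.0240), with a small spread within the groups (1.54 ± 0.0324 and 0.88 ± 0.0786). *Zfp36* differed by −0.35 and −0.80, 1.49-fold on average (adjusted p = 0.0384), and not past the threshold with quantile normalization (−0.39, adjusted p = 0.0813).

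The other 5 genes were lower without a call. *Irak3* differed by −0.59 and −0.85 (adjusted p = 0.0631), and its 3 probes all lay lower in KpCKO M1 in both cultures. *Tnip3* differed by −0.80 and −0.73 (adjusted p = 0.138) and *Tnfaip3* by −0.53 and −0.45 (adjusted p = 0.292). *Dusp1* was the 1 gene whose M1 arrays overlapped between the genotypes, with differences of −0.64 and −1.69 (95% interval −2.61 to 0.28, adjusted p = 0.220). *Tnip1* had the smallest difference, −0.027 and −0.32 (−0.62 to 0.28, adjusted p = 0.555).

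The call of *Zfp36* was also lost with normexp background correction (adjusted p = 0.109) and without a filter on dim probes (adjusted p = 0.0648). All 3 calls depend on the fit. None was made without the culture term, with only the WT M1 and KpCKO M1 arrays in the fit, or with the methods' t-test after adjustment, and none without the WT M1 array of culture 2 or without the KpCKO M1 array of culture 1. Without the KpCKO M1 array of culture 2 only *Dusp2* was called, and without the WT M1 array of culture 1 *Zfp36* and *Dusp1* were.

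Other readouts moved with genotype beside these genes. The summed level of the 6 macrophage markers, relative to the 75th percentile, was 665 to 804 in WT M1 and 496 to 562 in KpCKO M1. In Con it was 507 to 550 in WT and 375 to 425 in KpCKO. *Lyz2*, from whose locus KpCKO mice express Cre, is among these markers, and its part in the sums was not tested. In M1, *Adgre1*, *Fcgr1* and *Itgam* were called lower among these 6 markers, by log2 differences of −0.39, −1.20 and −0.65, where 8.59% of all genes were. *Csf1r*, *Lyz2* and *Mertk* were not called. With quantile normalization *Adgre1* was not called (−0.12), and 6.05% of all genes were called lower. The sums of 8 neutrophil markers overlapped between the genotypes in M1, at 9.77 to 13 in WT and 6.82 to 13 in KpCKO. Those of 4 dendritic cell markers did not, at 0.554 to 0.584 in WT M1 and 0.283 to 0.398 in KpCKO M1, and of these 4 *Xcr1* was called lower (−1.05, adjusted p = 0.0182). The 75th percentile was also lower on the WT M1 arrays (757 and 548) than on the KpCKO M1 arrays (906 and 787). The part of these differences in the levels of the 8 genes was not tested.

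**Figure D3:**
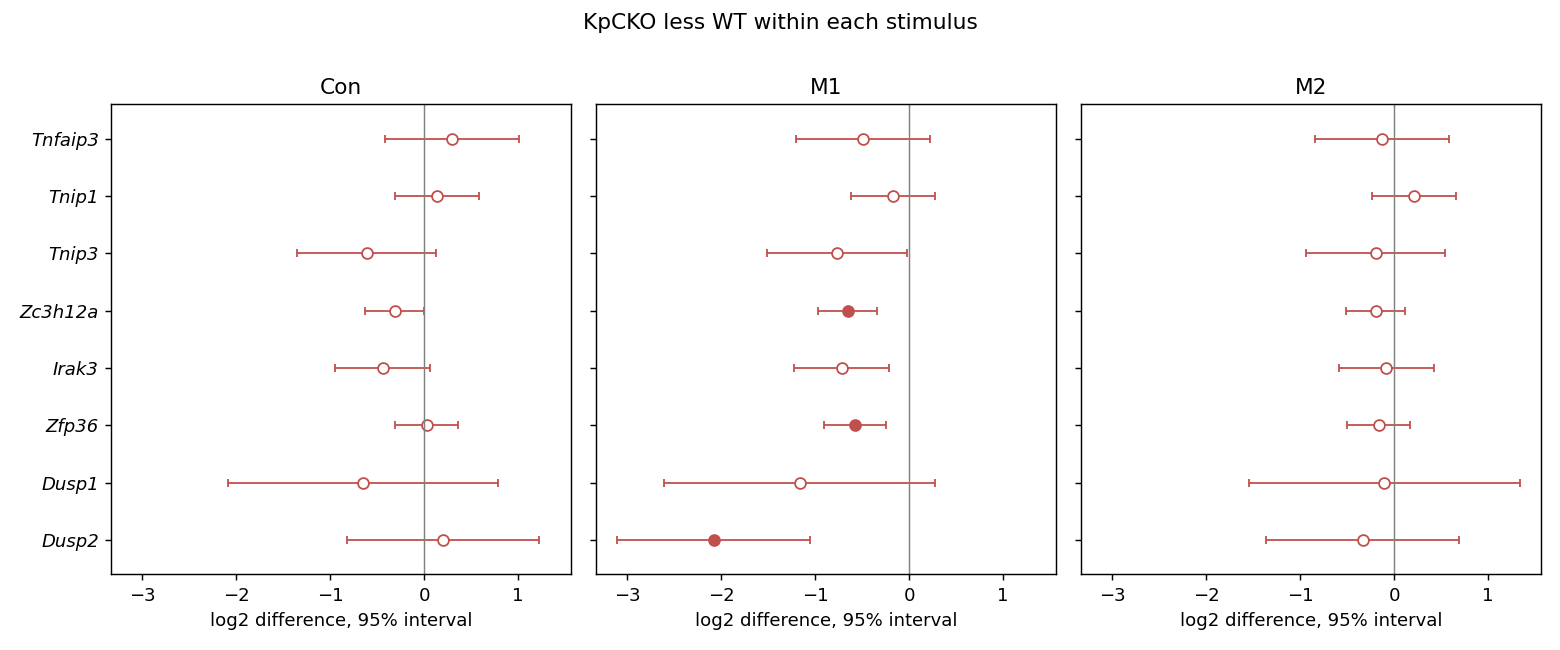
Log2 difference between KpCKO and WT BMDMs of the 8 genes in Con, M1 and M2 (horizontal axes, 1 scale), with the 95% interval of limma as bars and n = 2 arrays per group. Filled points passed limma's test and open points did not; only Dusp2, Zc3h12a and Zfp36 in M1 are filled, and all 8 points of M1 lie below 0, of which Tnip1 lies above 0 (0.054) with quantile normalization.

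In Con none of the 8 genes passed limma's test, where 2.21% of all genes were called, and in M2 none passed it, where 1.93% were. None of the 8 had an unadjusted p under 0.05 in either state, by limma or by the methods' t-test. The largest differences were −0.65 in Con for *Dusp1* (95% interval −2.09 to 0.79) and −0.33 in M2 for *Dusp2* (−1.36 to 0.69). In Con *Tnip3*, *Zc3h12a*, *Irak3* and *Dusp1* were lower in KpCKO in both cultures and *Tnip1* was higher, and for the other 3 genes the cultures differed in sign. For *Zfp36* the interval in Con was −0.30 to 0.36, so that a change of *Zfp36* in Con as large as its mean change in M1 (−0.57) lay outside it.

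Whether the response itself differed between the genotypes was tested as the difference of the M1 responses. In both cultures, each of the 8 genes had a lower M1 less Con difference in KpCKO than in WT, and none passed limma's test, although *Dusp2* and *Zfp36* had an unadjusted p under 0.05. Of all genes, 0.0716% passed it, 16 genes, and 3662 had an unadjusted p under 0.05. The median of the 8 genes was −0.43, against −0.074 over all genes, whose lower quartile was −0.37. *Tnip1*, *Tnip3*, *Zc3h12a* and *Irak3* lay above that quartile. The share of all genes lower in both cultures is not given here. For *Dusp1*, *Irak3* and *Tnip3* the mean difference turned its sign when certain single arrays were left out. For *Dusp2* the difference of the responses was −3.12 in culture 1 and −1.45 in culture 2 (mean −2.28, 95% interval −3.73 to −0.83, adjusted p = 0.179), and for *Zfp36* it was −0.41 and −0.79 (mean −0.60, −1.07 to −0.13, adjusted p = 0.234). The intervals of the other 6 genes included 0. *Tnip3* had a mean of −0.15 (−1.21 to 0.90), and its genotype difference in M1 of −0.77 stood beside one of −0.61 in Con. In the M2 response no gene of the 8 was called, against 0.00894% of all genes, 2 genes, and 451 genes had an unadjusted p under 0.05. The 8 differences there lay between −0.54 and 0.55.

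**Figure D4:**
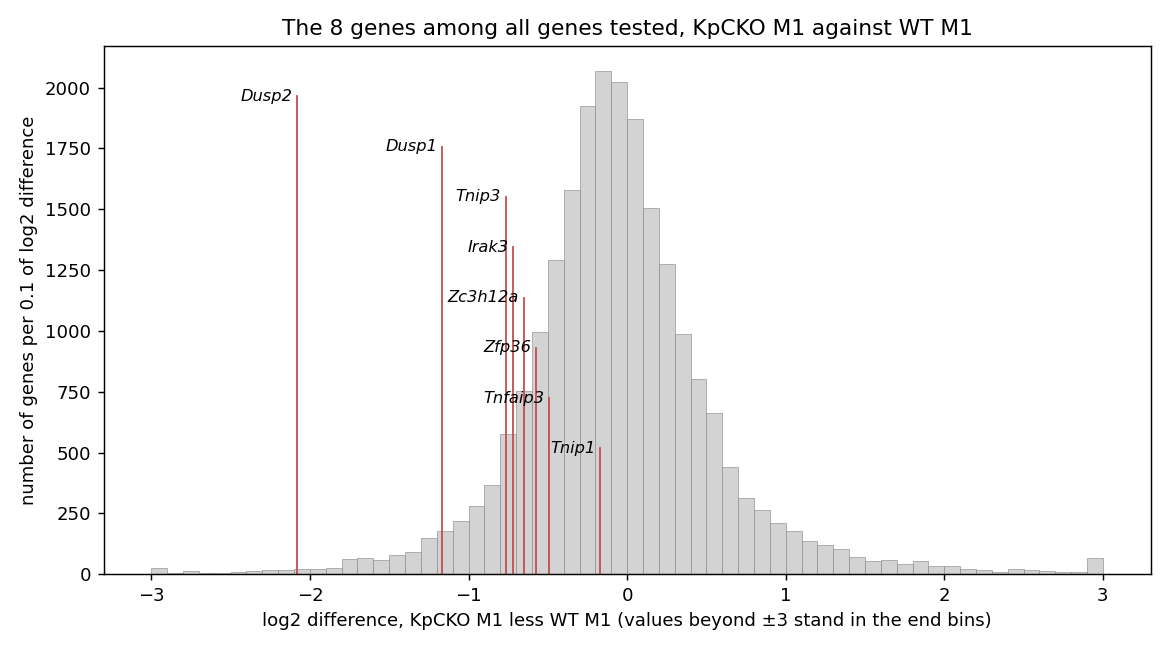
Distribution of the log2 difference between KpCKO M1 and WT M1 BMDMs over all genes tested (horizontal axis, log2 difference; vertical axis, number of genes), with a line for each of the 8 genes. Dusp2 (−2.08) and Dusp1 (−1.17) stand in the lower tail, and Tnip1 (−0.17) near the median of all genes (−0.087).

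The wider pathway was read from lists of related genes, each count of which stands against the share of all genes with the same call. In the M1 response of WT these shares were 34.5% higher and 28.7% lower (29.3% and 35.5% with quantile normalization), and between the genotypes in M1 they were 8.59% lower and 7.41% higher in KpCKO (6.05% and 9.08%). In WT M1, 8 of 18 TLR4 and Myddosome components were higher than in Con and 7 lower, where 34.5% and 28.7% of all genes were, with *Myd88* (2.81) and *Irak2* (2.17) among the higher and the inhibitory receptor *Sigirr* (−1.84) among the lower. Between the genotypes in M1, 4 of them were lower in KpCKO, where 8.59% of all genes were, led by the LPS co-receptor *Cd14* (−1.33), *Myd88* (−0.74) and *Ticam1* (−0.42), and none was higher. The median difference over this list was −0.20, against −0.087 over all genes. With quantile normalization 3 were lower and 2 higher in KpCKO M1.

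Of 15 partners of A20 and related ubiquitin factors, 8 rose and 3 fell in WT M1, against 34.5% and 28.7% of all genes. *Tank* (2.77), which binds TRAF proteins, and *Rnf31* (2.40), the catalytic subunit of the linear ubiquitin ligase, rose, and *Tnfaip8l2* (−2.25) fell, and with quantile normalization 4 rose and 3 fell, against 29.3% and 35.5% of all genes. Between the genotypes in M1, 2 were higher and 2 lower, with *Ikbkg* at 0.88, *Tank* at −0.78 and *Tnip2* at −0.48, the last not past the test with quantile normalization (−0.36). The IκB family, feedback inhibitors that hold NF-κB in the cytoplasm or act on it in the nucleus, rose in 6 of 6 members in both genotypes. Among them were *Nfkbie* (4.85 in WT), *Nfkbib* (3.28) and *Nfkbia* (2.73). With quantile normalization 5 of 6 rose in WT, without *Bcl3*. Of all genes, 34.5% rose in WT and 24.8% in KpCKO (29.3% and 22.8% with quantile normalization). *Nfkbib* was the 1 member lower in KpCKO M1 (−0.54, and −0.29 with quantile normalization, which was not called), whereas *Nfkbia* differed by −0.36 (adjusted p = 0.177).

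Among 13 partners and relatives of the RNA decay factors, 8 rose and 3 fell in WT M1, where 34.5% of all genes rose and 28.7% fell. *Malt1* (4.92), the protease that cleaves Regnase-1, *Arid5a* (4.61), which opposes Regnase-1 on target mRNAs, and *Zc3h12c* (3.56) rose. The close relatives of *Zfp36* went the other way, *Zfp36l1* by −2.59 and *Zfp36l2* by −2.66, both named after their values were seen. In KpCKO M1 the level of *Zfp36l1* lay below that of WT M1 (−1.40), as did that of *Arid5a* (−0.80), whose difference was not called with quantile normalization (−0.62). Of 17 genes listed as mRNA targets of tristetraprolin or Regnase-1, 15 could be tested, and 13 rose and 2 fell in WT M1 (34.5% and 28.7% over all genes), with *Il6* (13.16), *Ptgs2* (8.83) and *Tnf* (7.38) at the head. In KpCKO M1 7 of the 15 were lower than in WT M1 and 1 higher (8.59% and 7.41% over all genes), with *Il6* at −3.21, *Il1b* at −2.96 and *Ccl3* at −2.08, whereas *Tnf* differed by −0.50 (adjusted p = 0.387). The median difference of these targets was −0.90, against −0.087 over all genes.

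Of 14 immediate-early genes, which respond within minutes of a signal, 8 were higher and 3 lower at 6 h of M1 in WT, led by *Junb* (2.16), *Btg2* (1.76) and *Klf6* (1.75), where 34.5% and 28.7% of all genes were. With quantile normalization 6 were higher and 4 lower, and *Atf3* and *Ier5* were no longer called. In KpCKO M1 6 were lower than in WT M1 and 1 higher (8.59% and 7.41% over all genes), with *Nr4a1* at −2.78, *Egr2* at 2.08 and *Btg2* at −1.78. Of 17 measured MAP kinases, MAP kinase kinases and other dual-specificity phosphatases, 5 rose and 7 fell in WT M1. Of all genes, 34.5% rose and 28.7% fell. With quantile normalization 6 of the 17 rose and 8 fell, against 29.3% and 35.5% of all genes. *Dusp16* (3.37) and *Dusp10* (2.42), phosphatases for JNK and p38, rose, and *Map2k6* fell to background, at least 6.12-fold below Con. Between the genotypes in M1, *Dusp16* was lower in KpCKO (−1.52), and *Mapk14* (1.44), the gene for p38α, and *Mapk9* (0.61), the gene for a JNK, were higher. *Dusp4*, named after its values were seen, rose with IL-4 in WT (2.45, adjusted p = 0.00140) and was not called in M1 (0.59, adjusted p = 0.0503).

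**Figure D5:**
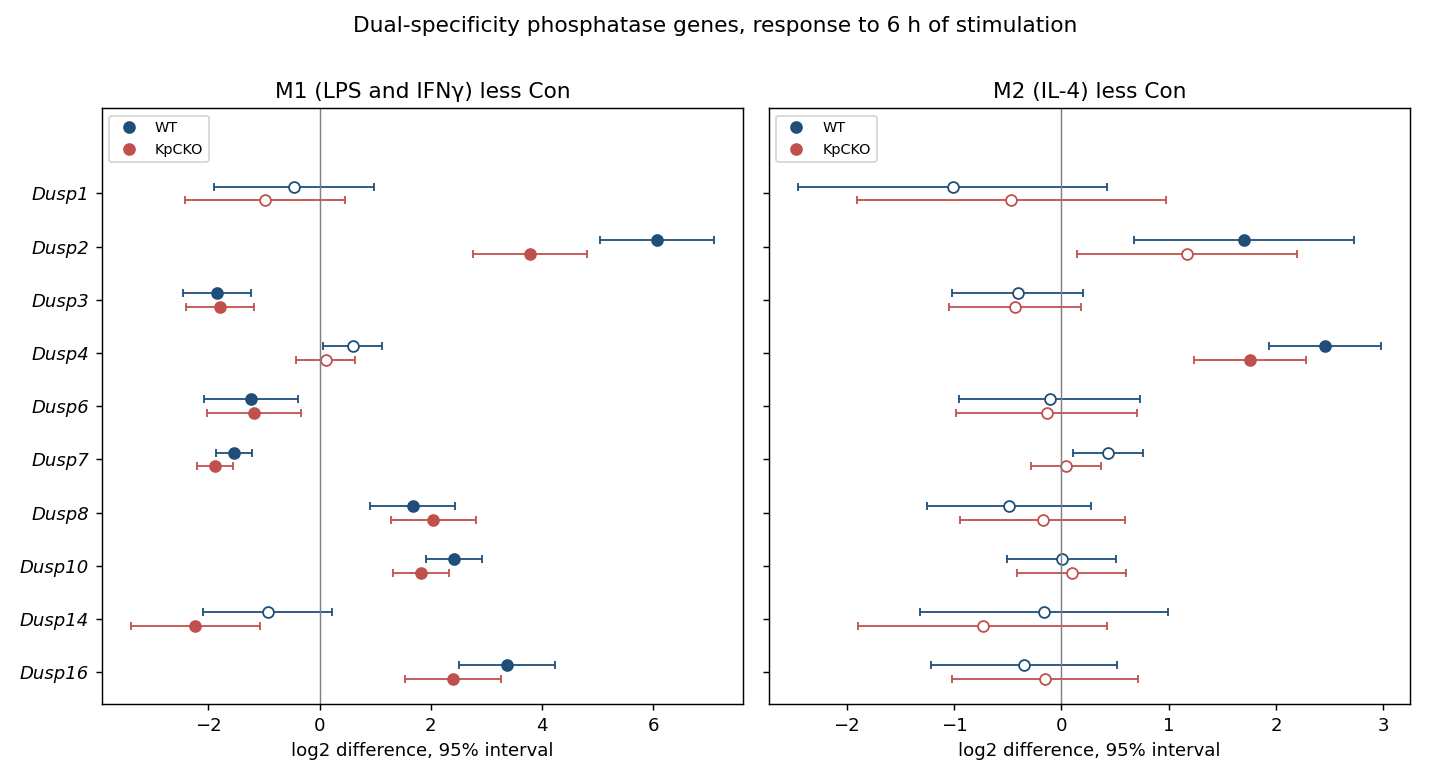
Log2 differences of the dual-specificity phosphatase genes (horizontal axes, with the 95% interval of limma as bars, n = 2 arrays per group) for the M1 and M2 responses in WT and KpCKO. Filled points passed limma's test and open points did not; Dusp2, Dusp16, Dusp10 and Dusp8 rise with M1, Dusp3, Dusp6 and Dusp7 fall, and Dusp4 rises with M2.

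The genes whose centred levels lay closest to each of the 8 over the 12 arrays were sought among 14457 genes with a symbol, by the root mean square difference on the log2 scale. *Tnfaip3* lay closest to *Ggct* (0.286) and *Irf1* (0.308), *Tnip1* to *Tpm4* (0.176) and *Phtf2* (0.183), and *Tnip3* to *Nupr1* (0.194) and *Pde4b* (0.321). *Zc3h12a* was closest to *Htt* (0.195) and *Eml4* (0.211), *Zfp36* to *Rbbp6* (0.150) and *Dip2c* (0.169), and *Irak3* to *Lyn* (0.199) and *Notch1* (0.251). By this measure the phosphatases had more distant neighbours, *Grasp* (0.367) and *Zfp821* (0.376) for *Dusp1*, and *Fgl2* (0.510) and *Rgs9* (0.553) for *Dusp2*. By Pearson correlation this held for *Dusp1* only, at 0.865 and 0.840 with its pair. *Dusp2* correlated with its pair at 0.973 and 0.968, against 0.943 and 0.927 for *Zfp36*. The 12 arrays share their slides and their mice, and no member had another of the 8 among its nearest pair, since members were left out of the search.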

How the data were processed

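RNA of 12 BMDM samples was measured on 1-colour Agilent arrays. The authors deposited the background-subtracted intensity of each spot from Feature Extraction 10.7.3.1, with no scaling between arrays, and a matrix of log2 values normalized with GeneSpring. On 40749 probes those log2 values followed the scaling used here, with slopes between 0.9997 and 1.0004. Outlier spots were left out, spots of a probe were averaged, and the 75th percentile of the array was subtracted on the log2 scale. Of 41174 probes, 26690 were matched to 18217 symbols by accession, with the brightest probe of a gene used. The 22367 genes whose signal cleared background in 1 or more whole groups were fitted. limma 3.58.1 in R 4.3.3 fitted the 6 groups with culture as a block over all 12 arrays, and p-values were adjusted over all genes by the Benjamini-Hochberg method, for 9 comparisons. They measure the spread between arrays of 2 mice per genotype. The number of arrays limits the precision.

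The pairing by culture is described for the series, and was checked on 17176 genes, where deviations from the group means correlated at 0.268 to 0.724 between groups of the same culture (15 pairs). The fit was tested on simulated data. The members and gene lists were chosen with earlier results of these data known. Named from the lists were, for M1 against Con in WT and for KpCKO against WT in M1, the 3 genes with the largest difference past the test, and *Tnf*, *Il6*, *Nfkbia*, *Keap1* and *Nqo1*. The alternatives were quantile normalization, normexp (offset 50, on median signals), the authors' matrix, other filters, the mean of a gene's probes, no culture term, mouse as a random block, other variance models, only the groups compared, the methods' t-test (unpaired), and each array left out. *Map3k8*, *Dusp5*, *Ly6g*, *Il12b* and *Cd68* were not analysed here. Plots were made with Python 3.11.15 and matplotlib 3.10.9, and promoters came from RefSeq (GRCm38.p6), whose build differs from that of the array design.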

Additional observations from a re-analysis of the deposited data

How the results depend on the processing

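The 7 genes called in M1 against Con in WT stayed called under all 14 other alternatives, and the methods' t-test called 4 after adjustment. In KpCKO that test called 0 of the 7, and *Zfp36* was called with 4 of 15 alternatives. In M2 against Con in WT, 4 genes were called, 7 with only the groups compared in the fit, 0 with the methods' t-test, and 1 to 2 with an array left out. In KpCKO M2, 3 genes were called, 1 with the normexp correction, 1 without a filter on dim probes, 1 with no replicate block, 0 with only the groups compared, 0 with the methods' t-test and 1 with any array left out. In KpCKO against WT in M1, 3 genes were called, 0 with no replicate block, 0 with only the groups compared, 0 with the methods' t-test, and 0 to 2 with an array left out. The cause of these changes was not tested, and some of these fits hold fewer arrays. The pairing by culture is part of the design, and no replicate block changed no other count by over 1.5 times. The methods' t-test was not run on differences of responses.

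Only differences that were not called turned their sign, 27 times with an array left out and 3 times otherwise: *Zfp36* in KpCKO against WT in Con was −0.011 with the mean of its probes, *Tnip1* in M1 was 0.054 with quantile normalization and *Dusp1* in M2 was 0.016 with the normexp correction. With an array left out, these differences ran over the following ranges. In M1 against Con in WT the range was −1.43 to 0.50 for *Dusp1*. In M2 against Con in WT the range was −0.45 to 0.19 for *Tnip1*. In KpCKO M2 against Con the range was −1.10 to 0.17 for *Dusp1*. Between the genotypes in Con the range was −0.35 to 0.76 for *Dusp2* and −0.021 to 0.075 for *Zfp36*. Between them in M1 the range was −0.38 to 0.035 for *Tnip1*. Between them in M2 the range was −0.74 to 0.53 for *Dusp1*, −0.77 to 0.10 for *Dusp2*, −0.58 to 0.32 for *Tnfaip3*, −0.10 to 0.53 for *Tnip1* and −0.47 to 0.085 for *Tnip3*. For the difference of the M1 responses the range was −1.48 to 0.45 for *Dusp1*, −0.58 to 0.025 for *Irak3* and −0.55 to 0.25 for *Tnip3*. For that of the M2 responses the range was −0.089 to 1.18 for *Dusp1*, −1.09 to 0.019 for *Dusp2*, −0.87 to 0.027 for *Tnfaip3*, −0.24 to 0.39 for *Tnip1* and −0.036 to 0.27 for *Zc3h12a*. Limits of signal over background do not apply to these genes, which were well above background on all 12 arrays.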
